A study of Mus musculus with 12 samples.

Results

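The chemokines described here are 8 CC chemokines that cells of the myeloid lineage are known to make, Ccl3, Ccl4, Ccl5, Ccl6, Ccl9, Ccl17, Ccl20 and Ccl22. They were taken by symbol from the 23329 genes listed in the count tables, and each was set beside Ptprc (CD45), the surface phosphatase of leukocytes, in the same library. The data are 12 mRNA-seq libraries of mouse small intestinal stromal cells, labelled as intestinal myofibroblasts, in 4 groups of 3. Each stage had 3 independent cultures, and PBS and LPS libraries of a stage that share a number were taken as the same culture. Embryonic stroma came from E14.5 embryos with 6 embryos pooled per culture, and adult stroma came from 3 adult mice, all on the C57BL6/J background. Cells at passage 2 to 3 received LPS from E. coli O111:B4, at a concentration the labels give as 10 µg/µl, or PBS as vehicle, and were harvested after 6 h. The cells were selected by removal of epithelium and by growth in culture and were not sorted, so other cell types could remain.

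CC chemokines are small secreted proteins that attract leukocytes through receptors on their surface. Macrophages exposed to LPS, a bacterial cell wall component sensed by the receptor TLR4, transcribe many of them within hours. Ccl3 and Ccl4 (MIP-1 alpha and beta) and Ccl5 (RANTES) attract monocytes and T cells, the rodent chemokines Ccl6 and Ccl9 act mainly through CCR1, Ccl17 and Ccl22 share the receptor CCR4 of regulatory and helper T cells, and Ccl20 is the ligand of CCR6 on lymphocytes and immature dendritic cells. Stromal and epithelial cells can also make some of them, Ccl20 and Ccl5 among them.

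The genes lie in 3 places of the mouse genome (GENCODE annotation, GRCm38). On chromosome 11, Ccl5 (83525778-83530518), Ccl9 (83572919-83578636), Ccl6 (83587882-83593087), Ccl3 (83647844-83649355) and Ccl4 (83662584-83664683) fall within 138.9 kb, and only Ccl4 is on the plus strand. On chromosome 8, Ccl22 (94745590-94751699) and Ccl17 (94810453-94812036) fall within 66.45 kb on the plus strand. Ccl20 stands alone on the plus strand of chromosome 1 (83116766-83119167). Counts were given per gene, and the longest coding transcript of each has 3 or 4 exons.

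The 250 bases before the transcript start are shown for 3 genes, Ccl20, Ccl3 and Ccl6. Ccl20 and Ccl3 were both higher with LPS in every culture of both stages, and the level of Ccl3 after LPS was far higher in embryonic stroma. For Ccl6 no change with LPS was detected. The sequences are those of RefSeq (GRCm38.p6), written 5′ to 3′ on the strand of the gene, at chr1:83116516-83116765 (plus), chr11:83649379-83649628 (minus) and chr11:83593088-83593337 (minus). Capitals mark matches to the NF-kB consensus on either strand and to TATAA on the strand of the gene.
Ccl20: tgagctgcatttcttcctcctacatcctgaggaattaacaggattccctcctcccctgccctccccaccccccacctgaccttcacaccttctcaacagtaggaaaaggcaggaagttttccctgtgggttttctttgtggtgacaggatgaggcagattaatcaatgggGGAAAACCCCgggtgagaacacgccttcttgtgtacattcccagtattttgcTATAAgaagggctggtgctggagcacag
Ccl3: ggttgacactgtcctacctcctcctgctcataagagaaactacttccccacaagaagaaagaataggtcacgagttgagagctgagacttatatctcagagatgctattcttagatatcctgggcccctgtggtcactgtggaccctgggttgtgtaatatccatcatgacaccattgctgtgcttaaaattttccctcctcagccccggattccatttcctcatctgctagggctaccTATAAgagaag
Ccl6: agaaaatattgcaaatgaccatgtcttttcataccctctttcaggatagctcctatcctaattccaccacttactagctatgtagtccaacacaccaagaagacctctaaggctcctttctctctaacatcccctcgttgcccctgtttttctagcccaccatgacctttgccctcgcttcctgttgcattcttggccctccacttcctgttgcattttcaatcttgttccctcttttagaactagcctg
Ccl20 held 1 match to the NF-kB consensus, from base -80 to -71, and TATAA from -28 to -24. Ccl3 held TATAA from -11 to -7 and no match to the consensus in this window, and Ccl6 held neither. Positions count back from the end of each window. The windows of Ccl20 and Ccl6 adjoin the genes as GENCODE gives them. That of Ccl3 stops at 83649379, upstream of the GENCODE start at 83649355, so its positions do not hold relative to that start. Windows were given for 6 of the 8 genes, and the consensus was also matched in Ccl9. Over all 32851 windows of the same length, 7.25% held the consensus and 16% held TATAA. A match in letters describes the window and does not show binding.

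Gene counts per library ranged from 18850224 to 32672370, so that 3 counts, taken as the smallest detectable level, corresponded to 0.0896 to 0.144 CPM (counts scaled by the TMM-adjusted library size). Fibroblast and myofibroblast markers were abundant in every library, while T cell, B cell, NK cell and neutrophil markers each summed to at most 3.32 CPM. The myeloid markers differed greatly between cultures. The 12 macrophage markers summed to 125 to 1353 CPM in embryonic LPS and 179.7 to 1988 CPM in embryonic PBS libraries, against 40.9 to 100.7 and 44.4 to 100.03 CPM in adult ones. Of these markers only Mertk had higher means in adult stroma, at 18.2 ± 16.7 (SD, n = 3) CPM with LPS and 24.5 ± 17.7 CPM with PBS. Its embryonic means were 14.2 ± 10.7 and 15.0 ± 11.2 CPM, so Mertk raised the adult sums more than the embryonic ones. Embryonic culture 3 had the highest Csf1r, the CSF-1 receptor of macrophages, at 124 CPM under LPS and 286 CPM under PBS. Adult culture 2 stood apart through the endothelial markers Pecam1, Cdh5 and Emcn, its Pecam1 being at 396 CPM under LPS and 430.3 CPM under PBS. Adult culture 3 came next, with Pecam1 at 71.7 and 79.0 CPM, and all other libraries held at most 1.09 CPM. Kdr, also an endothelial marker, showed no such excess. It averaged 7.83 ± 1.40 (SD, n = 3) CPM in adult LPS and 15.1 ± 1.53 CPM in adult PBS libraries. In embryonic libraries it averaged 22.4 ± 9.77 CPM with LPS and 9.42 ± 2.48 CPM with PBS.

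Ptprc was the measure of leukocyte RNA. It reached 19.5, 64.4 and 161.5 CPM in embryonic LPS cultures 1 to 3 and 7.53, 9.75 and 59.1 CPM in their PBS controls. In adult stroma it was 6.44, 0.553 and 2.37 CPM with LPS and 2.23, 0.337 and 0.545 CPM with PBS, which is as few as 18 counts with LPS and 7 with PBS in culture 2. Every embryonic LPS library lay above every adult one, by 26.2-fold between the means (13.4-fold without embryonic culture 3), and Ptprc was higher with LPS than with PBS in all 3 cultures of both stages. In bulk libraries such as these, fewer leukocytes and less RNA per leukocyte cannot be told apart.

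Ptprc itself moved with LPS relative to other leukocyte genes. Set against the sum of Cd53, Laptm5, Tyrobp, Fcer1g and Coro1a in the same library, Ptprc was 0.334, 0.269 and 0.303 of that sum in embryonic LPS and 0.101, 0.0864 and 0.0882 in embryonic PBS libraries. In adult stroma the values were 0.235, 0.149 and 0.374 with LPS and 0.0831, 0.0654 and 0.0808 with PBS. The treatments did not overlap in either stage. The log2 fold change of Ptprc was 1.68 ± 1.08 (SE) in embryonic stroma and 1.56 ± 1.19 in adult stroma, and neither passed the test (edgeR quasi-likelihood test with Benjamini-Hochberg adjustment over all genes, called edgeR adjusted p from here on, 0.753 and 1). With the culture as a block the embryonic value was 1.84 ± 0.26 (edgeR adjusted p = 0.00283) and the adult one 1.60 ± 0.41 (edgeR adjusted p = 0.0654). A ratio to Ptprc therefore sets LPS and PBS libraries against unequal denominators, and ratios are compared below within LPS libraries.

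The first question was which of the chemokines responded to LPS. In embryonic stroma 6 of 8 rose, Ccl3, Ccl4, Ccl5, Ccl9, Ccl20 and Ccl22, and in adult stroma 2 of 8 rose, Ccl5 and Ccl20 (edgeR adjusted p under 0.05 and a log2 fold change of at least 2). Among all 13038 genes tested, 1.87% rose by this rule in embryonic and 0.422% in adult stroma. With the culture as a block, the same 6 genes rose in both stages, where 3.02% and 1.6% of all genes rose. For embryonic and adult stroma, the median log2 fold change was 7.60 and 6.89 over the 8 genes and -0.000247 and -0.00751 over all genes. All 8 passed the filter on low values, but not through the same groups. Ccl6 did so through embryonic groups only, Ccl5 and Ccl20 through LPS groups only and Ccl22 through embryonic LPS alone, the group where it was highest. That Ccl5, Ccl20 and Ccl22 are counted among the rises is therefore no support for a rise. Nor is the count of Ccl22 among the differences between stages with LPS support for such a difference.

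**Figure D1:**
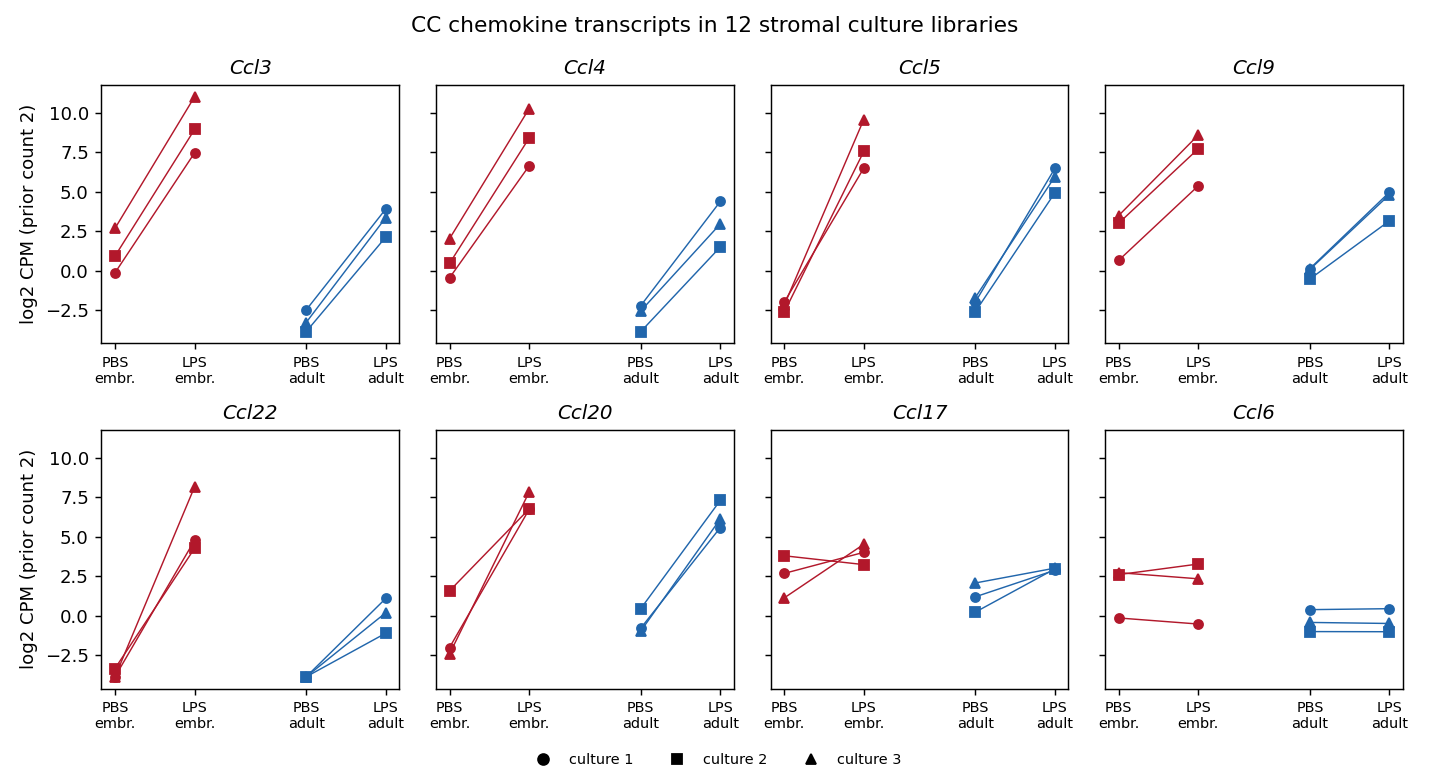
Level of each chemokine (log2 CPM with a prior count of 2, vertical axis) in the 12 libraries, with PBS and LPS libraries of the same number joined and embryonic (embr., red) and adult (blue) stroma apart. Lines for Ccl3, Ccl4, Ccl5, Ccl9, Ccl20 and Ccl22 rise in all 6 cultures, those for Ccl6 change by at most 0.67, and the lowest points, at about -4, are libraries with 0 counts.

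Ccl3 showed the highest level of the set. It stood at 175, 489 and 2049 CPM in embryonic LPS cultures 1 to 3 and at 0.843, 1.83 and 6.33 CPM in their PBS controls. In adult stroma it stood at 14.9, 4.30 and 10.2 CPM with LPS, and its PBS libraries held 3, 0 and 1 counts. Every LPS library lay above every PBS library of its stage, and each embryonic LPS library lay above each adult one, but the highest embryonic PBS library exceeded the lowest adult LPS library. The log2 fold change was 8.23 ± 1.2 in embryonic stroma (edgeR adjusted p = 0.00655). In adult stroma the PBS group was at the detection limit, so that Ccl3 was at least 82.5-fold higher with LPS. That adult difference missed the test without the block (edgeR adjusted p = 0.0627) and passed it with the block (edgeR adjusted p = 6.79e-06).

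Ccl4, which of these genes lies nearest to Ccl3, followed the same order of libraries. Its levels were 99.1, 336 and 1218 CPM in embryonic LPS and 0.662, 1.31 and 4.003 CPM in embryonic PBS libraries. Adult LPS libraries held 20.8, 2.76 and 7.73 CPM and adult PBS libraries 0.146, 0 and 0.102 CPM. The groups of each stage did not overlap, and the log2 fold changes were 8.11 ± 1.27 (edgeR adjusted p = 0.00877) and 6.80 ± 1.47 (edgeR adjusted p = 0.0878, and 1.62e-05 with the block). The adult value is set against 4, 0 and 3 counts. Over the 12 libraries the log2 levels of Ccl3 and Ccl4, each centred on its mean, differed by a root mean square of 0.488, the smallest difference between any 2 of the 8 genes.

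Ccl5 was close to undetected without LPS in both stages. Embryonic PBS libraries held 0.181, 0.0914 and 0.149 CPM and adult PBS libraries 0.183, 0.0963 and 0.238 CPM. With LPS it reached 89.3, 186 and 751 CPM in embryonic and 88.7, 30.4 and 61.7 CPM in adult stroma. Adult culture 1 thus came within 1 CPM of embryonic culture 1, which was the lowest of the embryonic libraries. The log2 fold changes were 11.20 ± 1.06 (edgeR adjusted p = 0.00127) and 8.36 ± 0.99 (edgeR adjusted p = 0.00683).

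Ccl9 was detected in all libraries before stimulation. It stood at 1.51, 7.95 and 11.1 CPM in embryonic PBS and 41.3, 210 and 383 CPM in embryonic LPS libraries. Adult values were 1.02, 0.626 and 0.988 CPM with PBS and 31.2, 8.85 and 27.9 CPM with LPS. The treatments did not overlap in either stage, and LPS and PBS means were 30.8-fold and 25.8-fold apart. The log2 fold changes were 4.94 ± 0.94 (edgeR adjusted p = 0.0203) and 4.66 ± 0.98 (edgeR adjusted p = 0.0774, and 9.91e-06 with the block).

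Ccl6, which of these genes lies nearest to Ccl9 and also acts through CCR1, did not follow it. Embryonic libraries held 0.630, 9.63 and 5.00 CPM with LPS and 0.843, 6.03 and 6.57 CPM with PBS. Adult libraries held 1.30, 0.430 and 0.648 CPM with LPS and 1.24, 0.433 and 0.681 CPM with PBS. The treatments overlapped in both stages, and a culture with more Ccl6 under PBS had more under LPS in adult stroma. The log2 fold changes were 0.18 ± 0.90 (edgeR adjusted p = 0.999) and 0.0043 ± 0.98 (edgeR adjusted p = 1), and with the block 0.033 ± 0.25 and 0.0045 ± 0.33.

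Ccl22 and Ccl17, the CCR4 ligands that mature dendritic cells and macrophages are known to make, differed from each other. Ccl22 had 0, 1 and 0 counts in embryonic PBS and 0 counts in each adult PBS library. With LPS it reached 27.5, 19.3 and 287 CPM in embryonic stroma but 2.08, 0.399 and 1.08 CPM in adult stroma. Against these PBS groups, the embryonic LPS mean was at least 1229-fold higher (edgeR adjusted p = 0.0108) and the adult LPS mean at least 9.99-fold higher (edgeR adjusted p = 0.521, and 0.0051 with the block). Embryonic culture 3 held most of the embryonic mean, and without it the bound was 257-fold. Without adult culture 2 the adult bound was 14.9-fold.

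Ccl17 was already present without LPS. It stood at 6.35, 13.9 and 2.12 CPM in embryonic PBS and 16.1, 9.38 and 22.9 CPM in embryonic LPS libraries, so that it was lower with LPS in culture 2. Adult values were 2.23, 1.11 and 4.16 CPM with PBS and 7.32, 7.77 and 8.03 CPM with LPS, and there it was higher with LPS in all 3 cultures. Neither difference passed the test, with log2 fold changes of 1.12 ± 0.62 (edgeR adjusted p = 0.644) and 1.61 ± 0.64 (edgeR adjusted p = 0.694).

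The 8 markers of dendritic cells summed to 5.34 to 21.0 CPM over the libraries. Flt3, Xcr1, Clec9a and Cd209a held at most 4 counts in any library, Cd207 at most 24, and Zbtb46, which endothelial cells also express, averaged 5.71 to 12.8 CPM in the 4 groups. Itgax, which macrophages also express, was highest in embryonic culture 3, reaching 6.83 CPM under LPS and 9.62 CPM under PBS. Ccr7, the receptor by which mature dendritic cells migrate, held 47, 3 and 223 counts in embryonic LPS cultures 1 to 3 and 37, 1 and 9 counts in adult ones, against at most 1 count in each PBS library. The order of the LPS libraries of each stage by Ccr7 was that of Ccl22, and the part of dendritic cells in the level of Ccl22 was not tested.

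Ccl20 had the smallest ratio between the LPS means of the stages. Embryonic LPS libraries held 106, 109 and 228 CPM and embryonic PBS libraries 0.181, 2.92 and 0.119 CPM. Adult LPS libraries held 47.9, 158 and 70.1 CPM and adult PBS libraries 0.512, 1.30 and 0.443 CPM. The stages overlapped under both treatments. The log2 fold changes were 7.10 ± 1.11 (edgeR adjusted p = 0.0087) and 6.98 ± 1.13 (edgeR adjusted p = 0.0232).

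The embryonic calls fell from 6 to 3 when the PBS library of culture 1 was left out, and to 5 without culture 3, where Ccl9 was lost (edgeR adjusted p = 0.0845). In adult stroma the 2 calls fell to 0 without adult culture 2 or without any single adult PBS library, and to 1 without the LPS library of adult culture 1 or 3. They rose to 4 without the LPS library of embryonic culture 1, and to 5 without that of embryonic culture 3 or without both libraries of that culture. With each stage fitted alone the test called 0 of 8 genes in embryonic stroma (edgeR adjusted p of 0.0729 to 0.208 for the 6 genes) and 5 of 8 in adult stroma. The log2 fold changes of the 6 responding genes stayed above 0 in all of these.

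**Figure D2:**
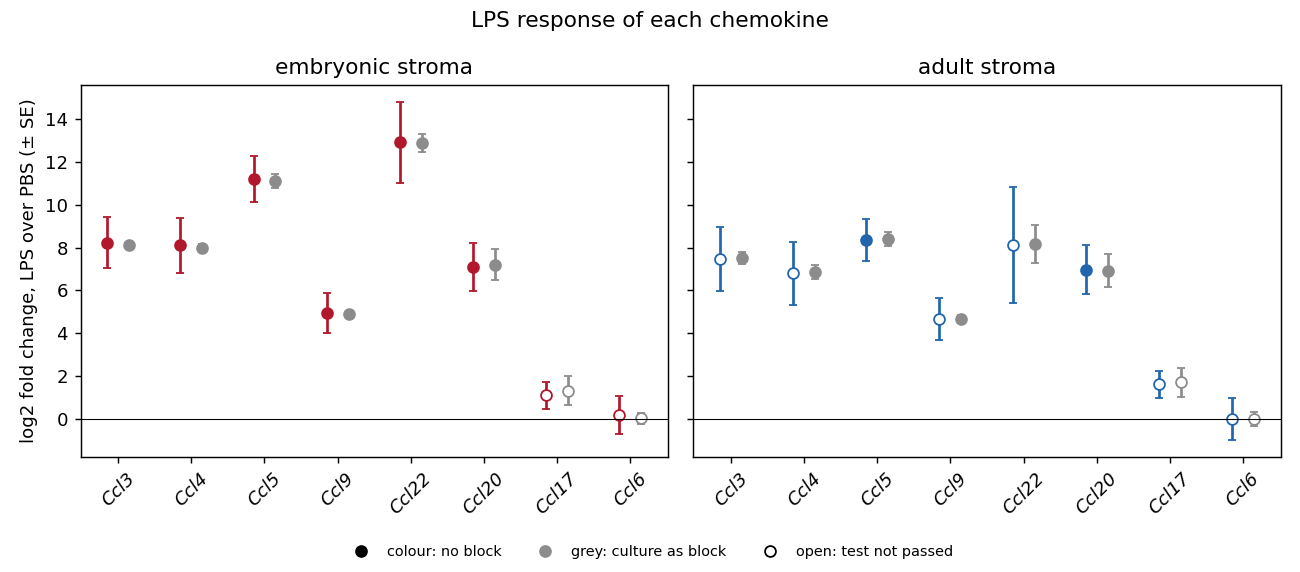
Log2 fold change of LPS over PBS (± SE, vertical axis) of each chemokine in embryonic (left) and adult (right) stroma, without a block (colour) and with the culture as a block (grey). Filled points passed the test, 6 in embryonic and 2 in adult stroma without the block and 6 in each with it, and with the block the errors were smaller for every chemokine except Ccl17. Values for Ccl22 and for Ccl3 in adult stroma are set against a PBS group at the detection limit and depend on the fit, and that of Ccl4 in adult stroma rests on 4, 0 and 3 counts with PBS.

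Whether the response to LPS differed between the stages was tested as an interaction. It passed for 0 of 8 chemokines, and 0% of all genes passed (edgeR, 0 of the 8 at an unadjusted p under 0.05). With the block, 0.844% of all genes passed and again 0 of the 8, and with DESeq2 0 of 8 passed as well. Ccl5 came nearest, with a rise 2.84 ± 1.49 larger on the log2 scale in embryonic stroma (edgeR adjusted p = 1.000 without the block and 0.346 with it, unadjusted p = 0.0118 with it). Without embryonic culture 3 the difference for Ccl5 was 1.54. For Ccl22 the difference was 4.81 ± 107 without the block and 4.71 ± 40.4 with it. Its adult PBS libraries all held 0 counts, so the test cannot decide whether its response differed. For Ccl9 the difference was 0.28 ± 1.24 and for Ccl20 0.12 ± 1.38, and both ran in either direction as single libraries were left out.

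The levels after LPS were then compared between the stages. The ratio of the embryonic to the adult mean spread widely over the set. It was 93.6 for Ccl22, 92.3 for Ccl3 and 52.8 for Ccl4, above the 26.2 of Ptprc. It was 9.33 for Ccl9, 6.42 for Ccl6, 5.67 for Ccl5, 2.09 for Ccl17 and 1.61 for Ccl20, all below that of Ptprc. The embryonic means of Ccl3, Ccl4, Ccl5, Ccl9 and Ccl22 rest largely on embryonic culture 3. Without it the ratio was 33.9 for Ccl3, 20.8 for Ccl4, 19.7 for Ccl22, 5.54 for Ccl9 and 2.28 for Ccl5, against 13.4 for Ptprc. It was 1.65 for Ccl17 and 1.17 for Ccl20, while that of Ccl6 did not fall (6.47). Without adult culture 2, the ratio was 2.50 for Ccl20.

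Of the 8 genes, 3 were higher in embryonic than in adult stroma with LPS (edgeR adjusted p under 0.05), where 5.31% of all genes differed in either direction. These were Ccl3 with a log2 difference of 6.53 ± 1.11 (edgeR adjusted p = 0.0131), Ccl4 with 5.72 ± 1.13 (edgeR adjusted p = 0.0226) and Ccl22 with 6.54 ± 1.25 (edgeR adjusted p = 0.0277). Ccl9 and Ccl5 lay just outside, with 3.22 ± 0.86 (edgeR adjusted p = 0.0582) and 2.50 ± 0.68 (edgeR adjusted p = 0.0606). Ptprc, at 4.71 ± 1.24 (edgeR adjusted p = 0.0555), also missed, but passed with the replicate number as a block (4.89 ± 1.24, edgeR adjusted p = 0.0496). That block joins embryonic and adult cultures of the same number, which are separate cultures. Their deviations from the group means were not positively correlated (-0.306 to -0.00220), so the pass is no firmer than the miss. The 3 calls became 0 without adult culture 2 or the LPS library of adult culture 3, 1 without that of adult culture 1 or 2, and 5 without that of embryonic culture 1.

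With PBS, 0 of 8 genes differed between the stages, where 4.08% of all genes did (edgeR). At an unadjusted p under 0.05 there were 5, DESeq2 called 3, and 1, Ccl3, passed with the replicate number as a block, which again joins separate cultures. Ccl3 averaged 3.00 ± 2.93 (SD, n = 3) CPM in embryonic stroma and was at the detection limit in adult stroma. The log2 difference of Ccl4 was 4.41 ± 1.52 (edgeR adjusted p = 0.133).

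The make-up of the chemokine transcripts was described per transcript length, since longer transcripts give more reads. Without LPS, Ccl17 had the highest mean level per kb in both stages, 14.48 ± 11.6 (SD, n = 3) CPM per kb in embryonic and 4.86 ± 3.00 in adult stroma, although in embryonic culture 3 Ccl3, Ccl4 and Ccl6 stood above it. With LPS the order in embryonic stroma was Ccl3 at 1181 ± 1310 CPM per kb, ranging from 229 to 2675 between cultures, Ccl4 at 834 ± 893, Ccl5 at 643 ± 672 and Ccl20 at 104 ± 49.1. In adult stroma the order was Ccl5 at 113 ± 54.8, Ccl20 at 64.9 ± 41.0, Ccl4 at 15.8 ± 14.1, Ccl17 at 15.0 ± 0.70 and Ccl3 at 12.8 ± 6.93. The spread between cultures was larger than the steps between Ccl3, Ccl4 and Ccl5 in embryonic stroma and, in adult stroma, between Ccl5 and Ccl20 and between Ccl4 and Ccl3.

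Within a library the share of Ccl3 varied less between cultures than its level. Ccl3 made up 33.6%, 38.1% and 41.8% of the summed CPM per kb in embryonic LPS cultures 1 to 3, and 6.997%, 2.85% and 6.15% in adult ones. Ccl20 made up 11.05%, 4.57% and 2.51% in embryonic and 12.2%, 56.6% and 22.9% in adult LPS libraries. Ccl3 and Ccl4 shares did not overlap between the stages. Those of Ccl20 did not overlap either, but lay within about 1 percentage point of each other in embryonic and adult culture 1. Ccl5 made up 20.8% to 24.7% in embryonic and 29.03% to 59.99% in adult LPS libraries.

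**Figure D3:**
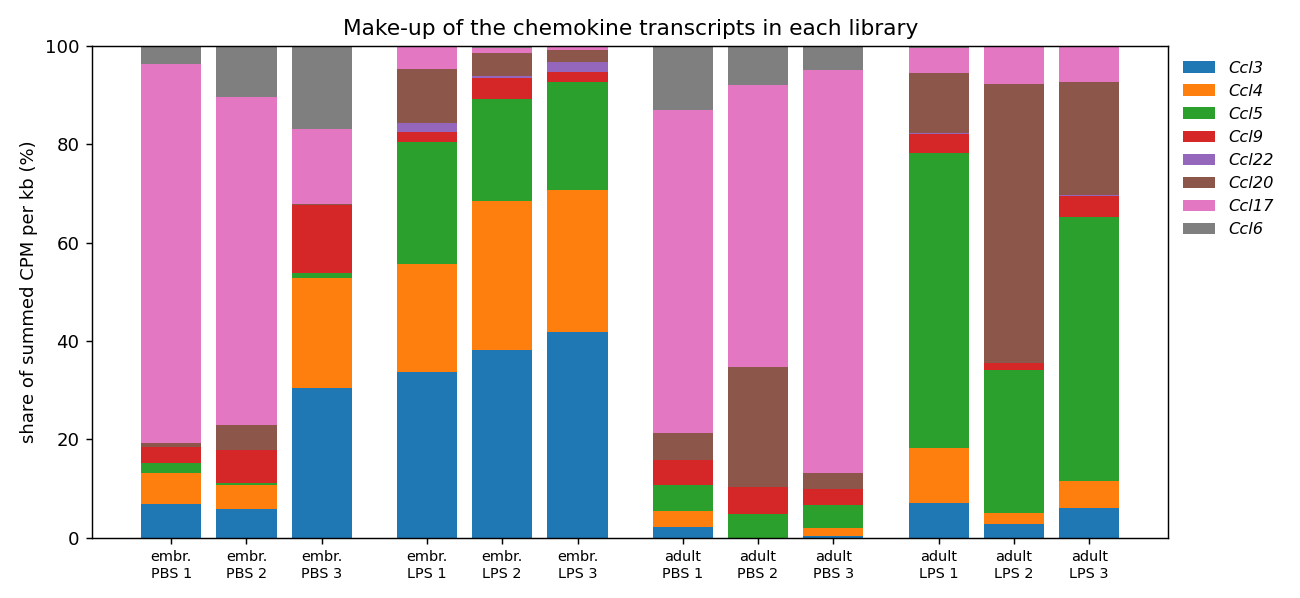
Share of each chemokine in the summed CPM per kb of the 8 genes (vertical axis, %) in each of the 12 libraries, by stage, treatment and culture number. Ccl17 (pink) leads in 5 of the 6 PBS libraries, Ccl3, Ccl4 and Ccl5 together fill 80% or more of each embryonic LPS library, and Ccl5 and Ccl20 fill most of each adult LPS library.

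Each chemokine was next related to Ptprc of the same library. For every Ptprc read, embryonic LPS libraries held 8.96, 7.59 and 12.7 reads of Ccl3 and adult LPS libraries 2.31, 7.78 and 4.29. For Ccl4 the values were 5.07, 5.21 and 7.54 against 3.23, 5.00 and 3.25. Thus the stages, more than 50-fold apart in the mean CPM of either gene, overlapped in the ratio of Ccl3 and nearly met in that of Ccl4, and adult culture 2 with 18 Ptprc counts gave the highest adult ratio of both. Ccl22 reached 1.41, 0.299 and 1.77 reads per Ptprc read in embryonic and 0.323, 0.722 and 0.455 in adult LPS libraries, and these overlapped.

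The remaining chemokines, whose ratios between the LPS means of the stages lay below that of Ptprc, had more reads per Ptprc read in adult stroma. Ccl5 held 4.57, 2.89 and 4.65 in embryonic and 13.8, 55 and 26 in adult LPS libraries. Ccl9 held 2.11, 3.25 and 2.37 against 4.84, 16.0 and 11.8, and Ccl20 held 5.44, 1.68 and 1.41 against 7.44, 285 and 29.5. The adult values were higher in every library and spread most for Ccl20. Ccl17 held 0.824, 0.146 and 0.142 against 1.14, 14.1 and 3.38, and Ccl6 0.0323, 0.149 and 0.0310 against 0.202, 0.778 and 0.273.

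On the log2 scale with a prior count of 2, the ratios of 7 of the 8 chemokines did not overlap between the stages, Ccl22 being the exception, with 2 higher in embryonic (Ccl3 and Ccl4) and 5 higher in adult stroma. Those of Ccl3 were kept apart only by the prior count, since its ratios of raw reads overlapped. This count is no result about these genes, since the ratio to Ptprc did not overlap for 94.9% of all genes. The exact permutation test (two-sided, unadjusted, 3 against 3) gave p = 0.1 for each of the 7, the smallest value it can give, and p = 0.4 for Ccl22.

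With the Ptprc count in place of the library size, 96.1% of all genes differed between the stages with LPS (edgeR). Ptprc itself was higher in embryonic stroma, so a gene at equal CPM in both stages is lower there per Ptprc read. Against this background, 3 of 8 chemokines were lower per Ptprc read in embryonic stroma, a count that is no result about these genes. These were Ccl20 with a log2 difference of -5.24 ± 1.55 (edgeR adjusted p = 0.00219), Ccl17 with -4.06 ± 1.49 (edgeR adjusted p = 0.00694) and Ccl5 with -2.97 ± 1.39 (edgeR adjusted p = 0.0343). For Ccl9 the difference was -2.07 ± 1.35 (edgeR adjusted p = 0.127) and for Ccl6 -2.51 ± 1.44 (edgeR adjusted p = 0.084). For Ccl3 it was 1.03 ± 1.31 (edgeR adjusted p = 0.439), for Ccl4 0.64 ± 1.30 (edgeR adjusted p = 0.631) and for Ccl22 1.23 ± 1.33 (edgeR adjusted p = 0.361), so that a difference of several fold in either direction was not detectable at these Ptprc counts.

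Leaving out the LPS library of adult culture 2 reduced the 3 calls to 1, Ccl20, with a log2 difference of -2.70. The counting error of Ptprc itself is not part of these errors. With the other 5 leukocyte genes as the denominator, Ccl20 was at -4.35 (edgeR adjusted p = 0.00423), Ccl17 at -3.34 (edgeR adjusted p = 0.0148), Ccl5 at -2.51 (edgeR adjusted p = 0.0546) and Ccl3 at 1.43 (edgeR adjusted p = 0.261).

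**Figure D4:**
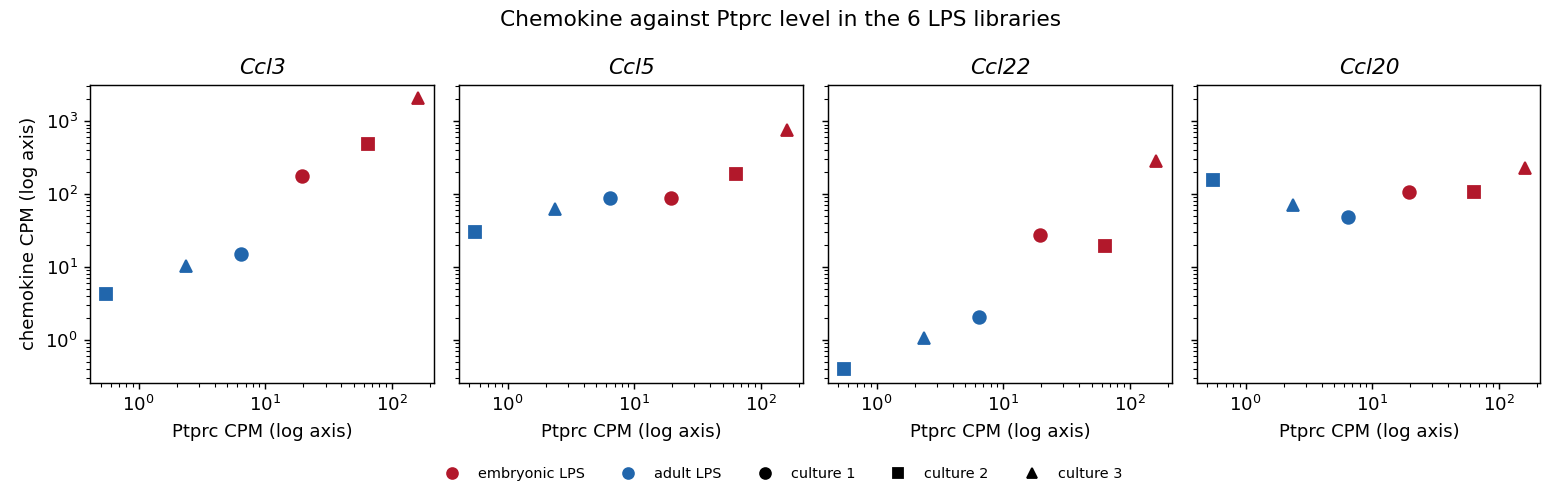
CPM of Ccl3, Ccl5, Ccl22 and Ccl20 (vertical, log axis) against CPM of Ptprc (horizontal, log axis) in the 3 embryonic (red) and 3 adult (blue) LPS libraries. Ccl3 runs from 4.30 to 2049 CPM in the order of Ptprc, whereas Ccl20 lies between 47.9 and 228 CPM over the whole range of Ptprc.

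The order of the LPS libraries was set against that of Ptprc in each stage. Among the adult ones, Ptprc was highest in culture 1 and lowest in culture 2, and Ccl3, Ccl4, Ccl5, Ccl6, Ccl9 and Ccl22 followed that order. Ccl20 ran the other way, highest at 158 CPM in culture 2, where Ptprc was 0.553 CPM and Pecam1, Cdh5 and Emcn were highest. It was lowest at 47.9 CPM in culture 1, while Ccl17 stayed between 7.32 and 8.03 CPM. The part of the endothelial cells in the level of Ccl20 was not tested. The embryonic LPS libraries gave another picture. Ptprc was lowest in culture 1 and highest in culture 3, and Ccl3, Ccl4, Ccl5, Ccl9 and also Ccl20 followed that order. Ccl22 and Ccl17 were lowest in culture 2, at 19.3 and 9.38 CPM, and Ccl6 was highest there, at 9.63 CPM. These are orders of 3 libraries and no test was made of them.

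Most receptors of these chemokines had few or no counts. Ccr4 had no count in any library, Ccr6 at most 1 and Ackr2 at most 2, and 3 of the 7 receptors passed the filter. Of these, 1 rose in embryonic stroma, Ccrl2, an atypical receptor that binds chemerin, from 0.890 ± 0.840 to 80.3 ± 71.3 CPM (log2 fold change 6.49 ± 0.91, edgeR adjusted p = 0.00528). In adult stroma it stood at 0.246 ± 0.0445 CPM with PBS and 5.84 ± 2.33 CPM with LPS (edgeR adjusted p = 0.069), and with the block it rose in both stages. Ccr1, the receptor of Ccl3, Ccl5, Ccl6 and Ccl9, averaged 17.4 ± 22.3 CPM in embryonic PBS and 3.15 ± 2.46 CPM in embryonic LPS libraries, a difference that did not pass (log2 fold change -2.47 ± 1.00, edgeR adjusted p = 0.366).

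Of 12 other CC chemokines 5 passed the filter, and 2 of these rose in both stages. Ccl2, the main monocyte attractant, rose from 8.25 ± 1.99 to 1268 ± 649 CPM in embryonic and from 58.3 ± 19.9 to 1767 ± 241 CPM in adult stroma (edgeR adjusted p = 0.000149 and 0.00165). Ccl7, a related ligand of CCR2, rose from 3.89 ± 0.33 to 279 ± 104.9 CPM and from 15.96 ± 2.90 to 466 ± 85.1 CPM (edgeR adjusted p = 2.36e-05 and 0.000127). Both had higher means in adult than in embryonic stroma under either treatment. With LPS this is the reverse of the order of the means of all 8 chemokines. However, LPS libraries of the stages overlapped for Ccl2, at 633 to 1929 CPM in embryonic and 1525 to 2007 CPM in adult stroma. They also overlapped for Ccl6 and Ccl20, and no test between the stages is given for Ccl2 or Ccl7. Ccl12 stood at 47.1 ± 57.1 CPM in embryonic LPS and 1.56 ± 2.22 CPM in embryonic PBS libraries, and it rose only with the block. Ccl25 and Ccl27a, which epithelium is known to make, stayed below 5 CPM in the mean of every group.

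The genes with the most similar pattern over the 12 libraries were found by the root mean square difference of centred log2 levels. Nearest to Ccl3 were Il1b (0.795), Cd69 (0.862) and Mx1 (0.930), and nearest to Ccl4 were Cd69 (0.678), Mx1 (0.708) and Il1a (0.825). Ccl22 lay nearest to Cxcl9 (0.497), Cxcl11 (0.542) and Il27 (0.852). These are cytokines, interferon-induced genes and an activation marker. Ccl5 lay nearest to Cxcl10 (0.898), Nos2 (0.981) and Gbp5 (1.02), and Ccl9 to Ccrl2 (0.838), Cd83 (0.873) and Nod2 (0.888).

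Ccl20 had the least similar neighbours of the set, Nos2 (0.959), Gm4841 (1.32) and Cxcl5 (1.41). Cxcl5 is a neutrophil attractant. Ccl6 lay nearest to Cfp (0.475), B4galnt2 (0.506) and Adam8 (0.612), and Ccl17 to Hk2 (0.701), Tank (0.721) and Vcan (0.737). The distances describe 12 libraries that share 4 groups and 6 cultures, and no test was made of them.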

How the data were processed

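The authors trimmed the reads, mapped them to GRCm38.p6 (mm10) with STAR, discarded reads that mapped to several places or had over 1 mismatch, and deposited raw counts per gene, without normalization, for each of the 12 libraries. The column of the strand that held nearly all gene counts was used here, as the opposite strand held 1.14% to 1.98%. Lines that name no gene were left out of the totals. Genes with more than 0.5 CPM in all libraries of at least 1 group were kept. Testing used edgeR 4.0.16 in R 4.3.3 (TMM, quasi-likelihood test, 1 fit of 4 groups, Benjamini-Hochberg adjustment), with limma 3.58.1 and DESeq2 1.42.0 for alternatives. Standard errors are the log2 fold change divided by the square root of F. A call needed an adjusted p under 0.05 and, for LPS against PBS, a log2 fold change of 2 or more in size.

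Libraries of a stage that share a number in the labels deviated together from their group means (correlations 0.61 to 0.85), so that the number pairs PBS and LPS. Across stages the correlations were -0.306 to -0.00220, although the names of the deposited tables share a prefix between stages.

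Named genes were the 8 chemokines, Ptprc, receptors and other CC chemokines that were called or above 10 CPM in a group mean, and the 3 nearest genes of each chemokine. Ccl25, Ccl27a and the receptors with almost no counts were named after their values were seen. The chemokines, lists and tests were chosen with earlier results of these data known. Transcript lengths are those of the longest coding transcript of GENCODE vM21. Detection limits cover counting error only. The values of 1 receptor are not reported here. The scripts were tested on simulated data.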

Additional observations from a re-analysis of the deposited data

How the results depend on the processing

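The small number of cultures and the spread of leukocyte content between them limit these results, and adult ratios to Ptprc rest on as few as 18 counts. The cause of each change below was not tested. The count of chemokines that rose in adult stroma was 2, and became 6 with the replicate block, 6 with DESeq2, 1 at an adjusted p under 0.01, 5 with the stage fitted alone and 0 to 5 as single libraries were left out. In 2 alternatives chosen after seeing the data it was 0 without adult culture 2 and 5 without embryonic culture 3, and both were also left out of the ratios between group means. The count in embryonic stroma was 6, and became 0 with the stage fitted alone and 3 to 6 without single libraries. Between stages with LPS the count was 3, and became 6 with DESeq2, 0 at an adjusted p under 0.01, 0 without adult culture 2 and 0 to 5 without single libraries. With PBS the count of 0 became 1 with the replicate block, 3 with DESeq2 and 0 to 1 without single libraries. Per Ptprc read the 3 calls became 1 to 3 without single libraries. The replicate block changed no other count of calls.

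Changes of sign were met only in values that had not passed the test. As single libraries were left out, the interaction ran from -1.08 to 0.32 for Ccl17, -0.48 to 2.93 for Ccl20, -0.71 to 1.94 for Ccl3, -0.071 to 2.32 for Ccl4, -0.51 to 0.82 for Ccl9 and -0.68 to 0.75 for Ccl6 on the log2 scale. Without embryonic culture 3 that of Ccl20 was -0.89. The log2 fold change of Ccl6 ran from -0.67 to 0.71 in embryonic and -0.56 to 0.50 in adult stroma. In adult stroma it was -0.0039 with DESeq2, -0.0081 with its size factors, -0.0050 without a filter on low counts, -0.0064 without regard to strand and -0.0012 without embryonic culture 3.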
